A study of Mus musculus with 6 samples.

Results

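The basement membrane and integrin genes of the fetal mouse lung were examined in lungs that lack Hopx and in wild-type lungs. The genes were taken by symbol: laminin chains (Lama, Lamb or Lamc plus a digit), type IV collagen chains (Col4a plus a digit), the linkers Nid1, Nid2, Hspg2 and Agrn, and integrin subunits (Itga or Itgb plus a digit, and Itgav). Of 18193 genes with a probe set of their own, 44 met this rule, and each was represented by the brightest of its probe sets, judged by the mean of the 6 lungs. They comprised 10 laminin chains, 6 type IV collagen chains, 4 linkers, 12 integrin alpha subunits, 8 integrin beta subunits and 4 genes that share only the start of a symbol (Itgb1bp1, Itgb1bp2, Itgb2l and Itgb3bp). No filter on low values was applied, so all 44 were tested, and the means of 38 lay above 6.69 on the log2 scale, the median of the probe sets.

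Total RNA came from microdissected lungs at E16.5 and was hybridised to 1 Affymetrix array per lung. One group was Hopx -/- (called Hopx-null here) and the other Hopx +/+ (wild-type), with 3 biological replicates each, and both were on a strain background given as mixed. No drug, transgene or further allele is named for either group. The labels do not give the sex of the embryos, their litters, the deleted part of Hopx or whether a sample pools several embryos, so a p-value measures only the spread between these samples. Hopx, a homeodomain protein that does not bind DNA itself, is a marker of the flat type I cells lining the alveoli.

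A basement membrane is the thin sheet of matrix under every epithelium and endothelium and around muscle cells. Trimers of an alpha, a beta and a gamma laminin chain form one network, type IV collagen trimers form another, and nidogens and the heparan sulphate proteoglycans perlecan (Hspg2) and agrin join the networks and bind growth factors. Cells hold on to the sheet through integrins, each a pair of an alpha and a beta subunit, and the pair decides which matrix protein is bound. In the developing lung this matrix guides airway branching, and the fused basement membrane of type I cells and capillaries later forms the barrier for gas exchange.

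The targeted gene was checked first, and values are given in the order of replicates 1 to 3. At one Hopx probe set the Hopx-null lungs read 4.59, 4.59 and 4.96 and the wild-type lungs 10.96, 10.59 and 10.41, and at the other 10.64, 10.35 and 10.47 against 12.50, 12.44 and 12.26. All markers of lung epithelium, endothelium, smooth muscle and mesothelium had means above the lower quartile of the values, and the epithelial markers averaged 11.51 to 11.59 in Hopx-null and 11.63 to 11.69 in wild-type lungs. The endothelial mean was 11.08 to 11.22 against 10.95 to 11.09, and the leukocyte mean 10.74 to 10.91 against 10.58 to 10.78. Wild-type replicates 2 and 3 carried signal of the Y-linked gene Eif2s3y, at 11.72 and 11.56, and the remaining lungs lay between 2.88 and 3.13. Xist, the X-inactivation RNA of females, read 12.65, 12.68 and 12.48 in Hopx-null and 12.22, 6.43 and 5.84 in wild-type lungs. By these genes only wild-type replicates 2 and 3 were of male type. Sex was thus unevenly split between the genotypes, and an effect of sex cannot be cleanly told apart from one of genotype. Cartilage markers averaged 8.10 and 8.28 in wild-type replicates 2 and 3 and 5.39 to 6.71 in the others. Control probe sets at the 3' end exceeded those at the 5' end most in Hopx-null replicate 3. The excess was 1.51 for actin, where the remaining lungs had 1.15 to 1.25, and 1.72 for Gapdh, where they had 1.42 to 1.60. In whole-lung RNA, fewer cells of a type and less RNA per cell cannot be told apart.

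None of the 44 genes passed the test between genotypes (limma eBayes, Benjamini-Hochberg over 45037 probe sets, threshold 0.05), against 0.0055% of all genes, which is Hopx alone, and 0.00444% of all probe sets, which are those of Hopx. The smallest adjusted p among them was 0.878. At an unadjusted p under 0.05 there was 1 of 44, Itga2, against 4.54% of all genes. In 5 genes, Lama4, Nid2, Itga2, Itgb3 and Itgb5, the lungs of the genotypes did not overlap, and in each of them Hopx-null lungs read higher. That is 11.4% of the 44, against 10.5% of all genes, of which 6.21% were higher and 4.31% lower in Hopx-null lungs. The median log2 difference (Hopx-null minus wild-type) of the 44 genes was 0.01, with 24 higher and 20 lower, and the median over all genes was 0.01, with 9504 higher and 8689 lower. With arrays centred on their medians the median of the 44 was -0.0042. In 34 of the 44 genes the difference was smaller than 0.25 in size, against 15482 of all 18193 genes. Among genes with a mean above the median of the probe sets, it was smaller in 31 of 38 members, against 9903 of all 11438. The range from the lowest to the highest of the 6 lungs was under 0.2 in 8 genes, 18.2% against 13.2% of all genes, and over 1 in 7 genes, 15.9% against 8.22% of all genes. Of those 7, 5 had a mean below the median of all probe sets. Among all genes above that median, 7.01% had a range over 1.

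**Figure D1:**
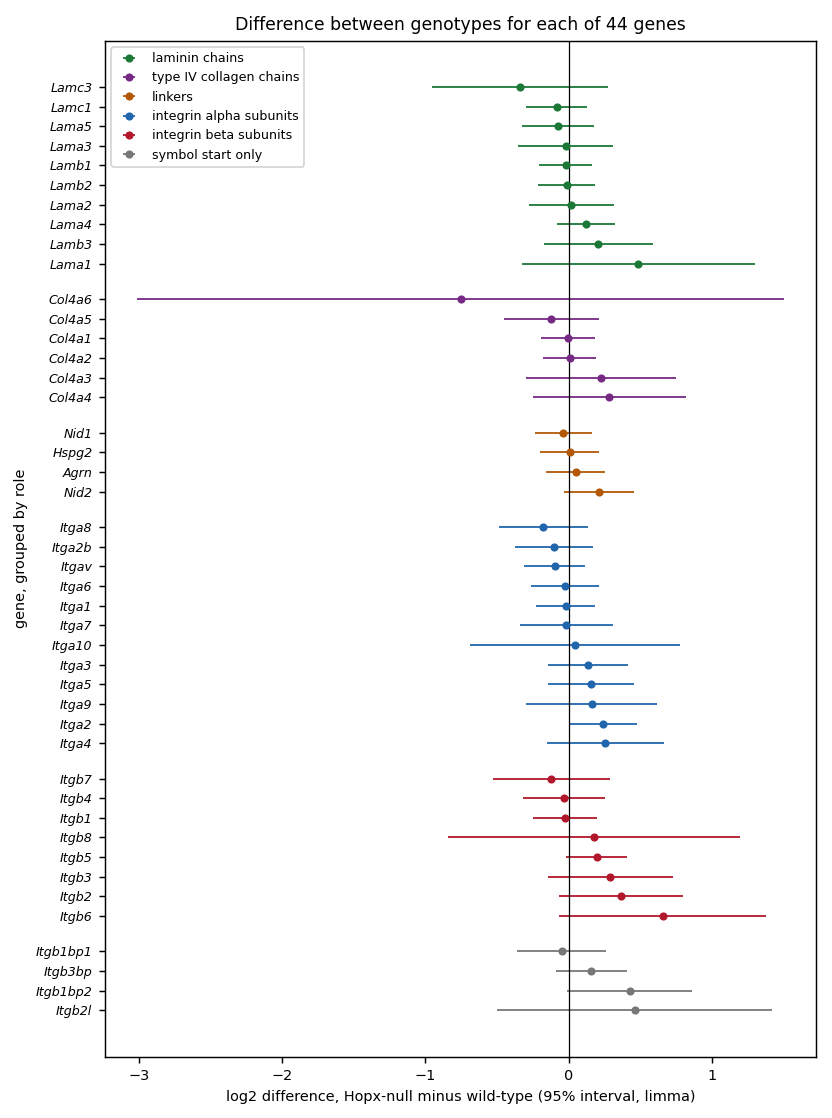
Log2 difference between Hopx-null and wild-type lungs for each of the 44 genes (dots, with 95% intervals from limma; n = 3 lungs per genotype), grouped by role. Differences run from -0.75 for Col4a6 to 0.66 for Itgb6, and the interval of Itga2 alone lies wholly above 0.

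The laminin chains are given first. Lamb1, the beta chain of most embryonic laminins, read 12.09, 11.99 and 12.04 in the Hopx-null lungs and 12.08, 12.05 and 12.04 in the wild-type lungs. The groups overlapped and all 6 lungs lay within 0.10, and its within-genotype SD stood at percentile 2.44 of all genes. Lamc1, the gamma chain that most laminin trimers share, read 12.19, 12.17 and 12.03 against 12.24, 12.14 and 12.25, with Hopx-null replicate 3 lowest. Lama5, the main alpha chain under lung epithelium, read 10.74, 10.78 and 10.84 against 10.92, 10.68 and 10.98, and differed by -0.07 (95% interval -0.32 to 0.18). Lamb2, a beta chain that joins mature basement membranes, ranged over 0.12 in all 6 lungs.

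Lama4, the alpha chain typical of vessel walls, read 11.78, 11.78 and 11.90 in Hopx-null and 11.64, 11.73 and 11.73 in wild-type lungs. All Hopx-null lungs thus lay above all wild-type lungs, by a gap of a few hundredths. The difference was 0.12 (SE 0.08, limma, Benjamini-Hochberg adjusted p = 0.878), 0.25 at its second probe set, where the groups overlapped, and 0.19 with Eif2s3y as a covariate. Lamb3, a chain of the laminin that anchors epithelia through hemidesmosomes, read 9.39, 9.65 and 9.95 against 9.59, 9.49 and 9.29. Hopx-null replicate 1 lay inside the wild-type range, and the difference of 0.21 (SE 0.16, limma, Benjamini-Hochberg adjusted p = 0.879) was 0.07 without Hopx-null replicate 3, 0.12 without wild-type replicate 3, 0.34 without Hopx-null replicate 1 and 0.07 with Eif2s3y as a covariate. Lama3, the alpha chain of the same laminin, differed by -0.02 and overlapped between groups. Lama2, the muscle laminin chain, differed by 0.02.

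The widest spread among laminin genes was in Lama1 and Lamc3, both below the median of all probe sets. Lama1, an alpha chain of the earliest embryonic basement membranes, read 6.77, 6.83 and 7.13 in Hopx-null and 6.37, 7.17 and 5.73 in wild-type lungs. Its wild-type values enclosed the Hopx-null ones. Lamc3, a gamma chain of restricted expression, read 6.09, 6.12 and 6.68 against 6.49, 6.28 and 7.13, with overlap. It differed by -0.34 at this probe set and by -0.32 at another. At this probe set the difference was -0.09 without wild-type replicate 3 and -0.53 without Hopx-null replicate 3.

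Type IV collagen showed 3 behaviours by chain. Its 6 genes lie in head-to-head pairs on chromosomes 8, 1 and X, and their chains assemble into trimers of the alpha 1 and 2, the alpha 3, 4 and 5, or the alpha 5 and 6 chains. In GRCm38.p6 the RefSeq window of 300 bases around the start of Col4a1 also held the annotated start of Col4a2, and the window of Col4a4 that of Col4a3. The window of Col4a6 did not hold the start of Col4a5. Col4a1 and Col4a2, the chains of every basement membrane, hardly varied. Col4a1 read 13.46, 13.47 and 13.56 in Hopx-null and 13.50, 13.48 and 13.51 in wild-type lungs. Col4a2 read 13.21, 13.21 and 13.29 against 13.23, 13.22 and 13.24. Hopx-null replicate 3 was highest for both, the groups overlapped, and the differences were -0.00033 (95% interval -0.19 to 0.19) and 0.01 (95% interval -0.18 to 0.19). The within-genotype SD of Col4a2 stood at percentile 1.51 of all genes.

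Col4a3 and Col4a4, whose chains form the tougher network of the alveolar and glomerular barriers, were level in 5 lungs and low in 1. Col4a3 read 12.46, 12.37 and 12.21 in Hopx-null and 12.39, 12.36 and 11.60 in wild-type lungs. Col4a4 read 12.42, 12.31 and 12.39 against 12.41, 12.31 and 11.55. Wild-type replicate 3 was the lowest lung at both probe sets of Col4a3 and all 3 of Col4a4, and at the brightest probe set of each gene the other wild-type lungs lay among the Hopx-null ones or within 0.01 of them. The differences were 0.23 (SE 0.22, limma, Benjamini-Hochberg adjusted p = 0.894) for Col4a3 and 0.29 (SE 0.22, limma, Benjamini-Hochberg adjusted p = 0.879) for Col4a4. Further probe sets gave 0.32 for Col4a3 and 0.22 and 0.49 for Col4a4, and the groups did not overlap at the probe set that gave 0.22. Without wild-type replicate 3 the differences became -0.03 and 0.02, without wild-type replicate 1 they became 0.36 and 0.45, without wild-type replicate 2 that of Col4a3 became 0.35, and with Eif2s3y as a covariate they became -0.05 and -0.04. In the same lung, 10 of 12 type I cell markers had their lowest value, as did 28.1% of all genes above the median of probe sets. The type I marker mean was 11.56 there and 12.01 to 12.09 in the other lungs. The endothelial list mean was also lowest there, at 10.95. Within that list Tek, Tie1, Emcn and Cldn5 were lowest there, and Cdh5 was highest there, at 10.65. The epithelial list mean was highest there, at 11.69. Within that list Krt8, Krt18 and Nkx2-1 were highest there, and Cldn18 was lowest there, at 12.65. Epcam, Cdh1 and Sftpc were neither highest nor lowest there. The part of all these markers in the Col4a3 and Col4a4 values was not tested.

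**Figure D2:**
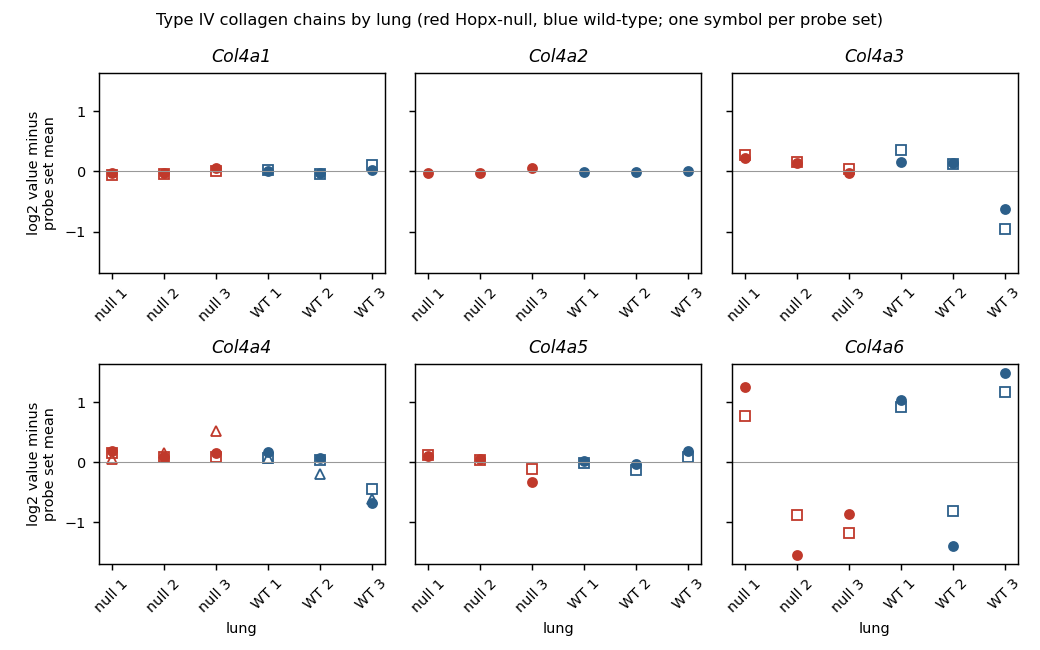
Deviation of each type IV collagen probe set from its own mean over 6 lungs (y axis, log2 units) for each lung (x axis), with a symbol per probe set, Hopx-null lungs in red and wild-type lungs in blue. Col4a1 and Col4a2 stay near 0, Col4a3 and Col4a4 are low in wild-type replicate 3, and Col4a6 splits the lungs of both genotypes.

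Col4a5 and Col4a6 are neighbours on the X chromosome, and only the second varied widely. Col4a5 read 10.65, 10.60 and 10.22 in Hopx-null and 10.57, 10.52 and 10.74 in wild-type lungs, with Hopx-null replicate 3 lowest, and differed by -0.12 (95% interval -0.45 to 0.21). Col4a6, whose chain is found in basement membranes of smooth muscle and some epithelia, read 7.76, 4.96 and 5.65 against 7.54, 5.11 and 7.98. Hopx-null replicate 1 and wild-type replicates 1 and 3 were thus high and the other lungs low. A second probe set gave 5.87, 4.22 and 3.92 against 6.01, 4.28 and 6.26, the same lungs high. The within-genotype SD of Col4a6 stood at percentile 99.8 of all genes, and its difference of -0.75 (SE 0.95, limma, Benjamini-Hochberg adjusted p = 0.911) was well inside that spread. This gene was singled out after its values were seen. Its difference was -0.17 without Hopx-null replicate 2, -0.20 without wild-type replicate 3, -0.42 without wild-type replicate 1, -1.57 without Hopx-null replicate 1, -1.64 without wild-type replicate 2 and -1.47 with Eif2s3y as a covariate. Y-linked signal was carried by wild-type replicates 2 and 3, which read 5.11 and 7.98 for Col4a6. Smooth muscle markers averaged 10.36, 10.26 and 10.54 in Hopx-null and 10.19, 10.52 and 10.36 in wild-type lungs. The cause of the Col4a6 pattern was not tested.

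The Lamb1 probe set with the lowest mean had the same high and low lungs. It read 7.10, 4.85 and 4.32 in Hopx-null and 7.65, 4.49 and 6.72 in wild-type lungs, while the other 3 probe sets of Lamb1 differed between genotypes by -0.06 to -0.02. Where this probe set lies in the transcript is not given in the sources used here, and Lamb1 lies on chromosome 12.

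**Figure D3:**
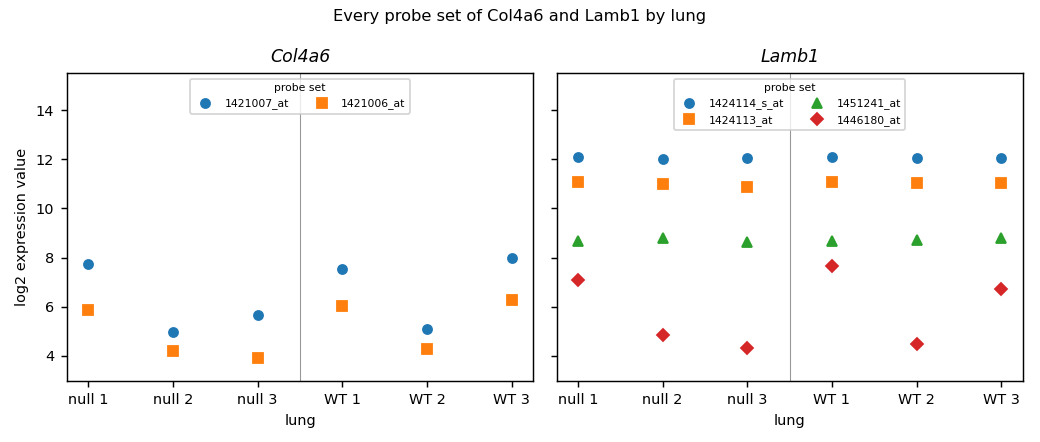
Log2 value (y axis) of every probe set of Col4a6 and Lamb1 in each lung (x axis). Both Col4a6 probe sets and 1 of 4 Lamb1 probe sets are high in Hopx-null replicate 1 and wild-type replicates 1 and 3, and the other Lamb1 probe sets are level.

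The stretches upstream of the neighbouring genes Col4a6 and Col4a5 are shown because the genes lie side by side and differ in how far their values spread. They come from the RefSeq promoter windows of GRCm38.p6, read 5' to 3' along each gene, and leave out bases inside any annotated gene. The Col4a6 stretch therefore ends 19 bases before the RefSeq start, and the Col4a5 stretch ends 49 bases before it. Bases nearer the start, where a TATA word would usually lie, were not searched in full, so the stretches are not complete promoters. That of Col4a6 is chrX:141474096-141474326 on the minus strand (231 bases, 45.5% G or C), and that of Col4a5 is chrX:141475169-141475369 on the plus strand (201 bases, 49.8% G or C). Both strands were searched for the TATA word TATAAA, for the CCAAT word and for the GC box GGGCGG, no matches overlap one another, and matches are in capitals.
Col4a6: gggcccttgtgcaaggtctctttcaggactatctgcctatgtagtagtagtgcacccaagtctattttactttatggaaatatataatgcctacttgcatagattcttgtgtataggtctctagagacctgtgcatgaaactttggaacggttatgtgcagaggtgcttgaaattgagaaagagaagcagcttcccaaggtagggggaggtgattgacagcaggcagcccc
Col4a5: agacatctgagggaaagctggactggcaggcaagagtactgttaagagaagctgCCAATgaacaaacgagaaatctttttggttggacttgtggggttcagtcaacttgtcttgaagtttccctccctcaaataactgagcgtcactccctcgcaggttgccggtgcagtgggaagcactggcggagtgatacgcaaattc
Col4a5 held 1 CCAAT, on the strand of the gene, as did 28.6% of 32851 RefSeq windows of that length on either strand. No match of the 3 words was in the Col4a6 stretch. This says only that these letters are not in this window.

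The linkers join the laminin and collagen networks. Nid1, the nidogen that bridges laminin and type IV collagen, read 12.62, 12.58 and 12.54 in Hopx-null and 12.54, 12.65 and 12.66 in wild-type lungs, and its 3 probe sets differed by -0.04 to 0.23. Agrn and Hspg2 each ranged over 0.19, with wild-type replicate 3 lowest for both, and differed by 0.05 (SE 0.09, limma, Benjamini-Hochberg adjusted p = 0.938) and 0.01. Without wild-type replicate 3 the difference of Agrn was -0.0027, without wild-type replicate 1 it was 0.076, and with Eif2s3y as a covariate it was -0.0056. Nid2, the second nidogen, read 10.43, 10.16 and 10.34 against 10.00, 10.14 and 10.14. Its groups did not overlap, by a gap of a few hundredths, and it differed by 0.21 (SE 0.10, limma, Benjamini-Hochberg adjusted p = 0.878). It was measured by 1 probe set.

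Among integrin alpha subunits, 6 were higher and 6 lower in Hopx-null lungs, with differences between -0.18 and 0.26. Among the laminin receptors, Itga6 read 12.09, 12.09 and 11.85 in Hopx-null and 12.09, 11.97 and 12.03 in wild-type lungs, and Itga3, a laminin receptor subunit of lung epithelium, differed by 0.14 (95% interval -0.14 to 0.42) and by 0.05 to 0.14 over its 3 probe sets. The difference of Itga3 was 0.04 without wild-type replicate 3, 0.24 without wild-type replicate 1 and -0.06 with Eif2s3y as a covariate. Itga7, the muscle laminin receptor, differed by -0.02. Of the collagen receptors, Itga1 differed by -0.02 at its brightest probe set and by 0.24 at another, where the groups did not overlap. Itga2 read 6.84, 6.87 and 6.73 in Hopx-null and 6.52, 6.71 and 6.48 in wild-type lungs. The groups did not overlap, and the difference of 0.24 had an interval above 0 (SE 0.10, limma, Benjamini-Hochberg adjusted p = 0.878, 95% interval 0.01 to 0.48). Its mean, 6.69, is just above the median of all probe sets. Itga10, a collagen receptor of cartilage cells, read between 5.15 and 6.22, highest in wild-type replicate 2 and Hopx-null replicate 3 and lowest in wild-type replicate 1, and it was 5.47 in wild-type replicate 3, the lung with the highest mean of the cartilage list.

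Other alpha subunits bind fibronectin, tenascin and further matrix outside the basement membrane. Itga4, which binds fibronectin and the endothelial protein Vcam1, read 10.94, 10.71 and 10.74 in Hopx-null and 10.79, 10.65 and 10.18 in wild-type lungs. It was lowest in wild-type replicate 3, and the groups overlapped. The difference was 0.26 (SE 0.17, limma, Benjamini-Hochberg adjusted p = 0.878) and lay between 0.11 and 0.32 over its 5 probe sets. It became 0.07 without wild-type replicate 3, 0.38 without wild-type replicate 1 and -0.00057 with Eif2s3y as a covariate. At the probe set with the highest variance it was 0.14. Itga5, the fibronectin receptor, read 10.85, 10.82 and 11.20 against 10.70, 10.83 and 10.87, with Hopx-null replicate 3 highest. Its 4 probe sets were all higher in Hopx-null lungs, by 0.08 to 0.33. At the brightest the difference was 0.16, or 0.03 without Hopx-null replicate 3 and 0.22 without Hopx-null replicate 2. Itga8, the mesenchymal receptor for nephronectin, read 11.14, 10.99 and 10.69 against 11.16, 11.14 and 11.04, lowest in Hopx-null replicate 3. It differed by -0.18 (95% interval -0.49 to 0.13), by -0.05 without that lung and by -0.28 without Hopx-null replicate 1. Its second probe set differed by -0.16, with no overlap between groups. Itga9, a receptor for tenascin, differed by 0.16 with overlap, by -0.02 without Hopx-null replicate 1 and by 0.30 without wild-type replicate 2. Itgav, the partner of several beta subunits, differed by -0.10 (95% interval -0.31 to 0.12) at its brightest probe set and by -0.05 to 0.26 at the others. Itga2b, the platelet subunit, differed by -0.10, and the megakaryocyte and platelet markers averaged 7.39 to 7.80 in Hopx-null and 7.50 to 7.81 in wild-type lungs.

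The beta subunits held the largest difference in the direction of Hopx-null lungs among the 44 genes. Itgb6, the epithelial partner of Itgav that releases active TGF-beta from its latent form, read 7.40, 8.01 and 7.96 in Hopx-null and 7.54, 7.37 and 6.49 in wild-type lungs. Hopx-null replicate 1 lay inside the wild-type range, and wild-type replicate 3 was the lowest lung. The difference of 0.66 on the log2 scale is a 1.58-fold higher mean in Hopx-null lungs, and it did not pass (SE 0.30, limma, Benjamini-Hochberg adjusted p = 0.878, 95% interval -0.07 to 1.38). The second probe set read 5.48, 6.02 and 6.04 against 5.69, 5.33 and 4.94, a difference of 0.53. Without wild-type replicate 3 the difference was 0.33, and with Eif2s3y as a covariate it was 0.24. Wild-type replicate 3 had the lowest mean of the type I cell markers and the highest epithelial list mean, as given for Col4a3. Within the epithelial list Krt8, Krt18 and Nkx2-1 were highest in that lung and Cldn18 was lowest in it. The part of those markers was not tested.

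Itgb5, another partner of Itgav, read 9.96, 9.88 and 10.10 in Hopx-null and 9.78, 9.79 and 9.79 in wild-type lungs. The wild-type lungs had an SD of 0.0080 and all Hopx-null lungs above them. Its 4 probe sets differed by 0.09 to 0.25, and the groups did not overlap at any of the 4, which measure the same RNA and are not independent. At the brightest the difference was 0.20 (SE 0.09, limma, Benjamini-Hochberg adjusted p = 0.878, 95% interval -0.02 to 0.41). A pair of these probe sets carries the suffix x_at, by which the array's maker marks probes that may also bind other transcripts.

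Itgb3, the partner of Itgav on endothelium and of Itga2b on platelets, read 10.33, 10.32 and 10.37 in Hopx-null and 9.62, 10.32 and 10.20 in wild-type lungs. The groups did not overlap, but Hopx-null replicate 2 and wild-type replicate 2 were equal to 2 decimals. The difference of 0.29 (SE 0.18, limma, Benjamini-Hochberg adjusted p = 0.878) was 0.08 without wild-type replicate 1, 0.01 at the second, dim probe set, 0.15 for the mean of both and 0.73 with Eif2s3y as a covariate. Itgb1, the most shared beta subunit, read 11.90, 11.99 and 11.85 against 12.05, 11.84 and 11.92 and differed by -0.02 (95% interval -0.25 to 0.20). Itgb4, the hemidesmosome subunit that pairs with Itga6, differed by -0.03 (95% interval -0.32 to 0.25).

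Itgb2, the subunit of leukocyte integrins, read 8.44, 8.77 and 9.18 in Hopx-null and 8.45, 8.41 and 8.44 in wild-type lungs. Hopx-null replicate 1 lay among the wild-type lungs and the other Hopx-null lungs above them. The difference was 0.37 (SE 0.18, limma, Benjamini-Hochberg adjusted p = 0.878), 0.18 without Hopx-null replicate 3 and 0.55 without Hopx-null replicate 1. The mean of the 6 leukocyte markers was 10.74, 10.81 and 10.91 in the Hopx-null lungs, against 10.78, 10.58 and 10.71 in the wild-type lungs. The Hopx-null means had the order of Itgb2, but not every marker did. Cd68, Laptm5 and Tyrobp rose in that order, and Coro1a was level in replicates 2 and 3. Ptprc fell (9.73, 9.70, 9.63), and Csf1r was highest in replicate 1 (12.77, 12.56, 12.66). Of the 6 markers, 5 were higher in Hopx-null lungs, 83.3% against 52.2% of all genes. The part of these markers in the Itgb2 values was not tested. Itgb7, a lymphocyte subunit, differed by -0.12, and Itgb8, which like Itgb6 pairs with Itgav and activates TGF-beta, read 5.37, 5.11 and 5.68 against 4.30, 6.10 and 5.22. Both lay below the median of all probe sets, and the wild-type values of Itgb8 enclosed the Hopx-null ones.

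**Figure D4:**
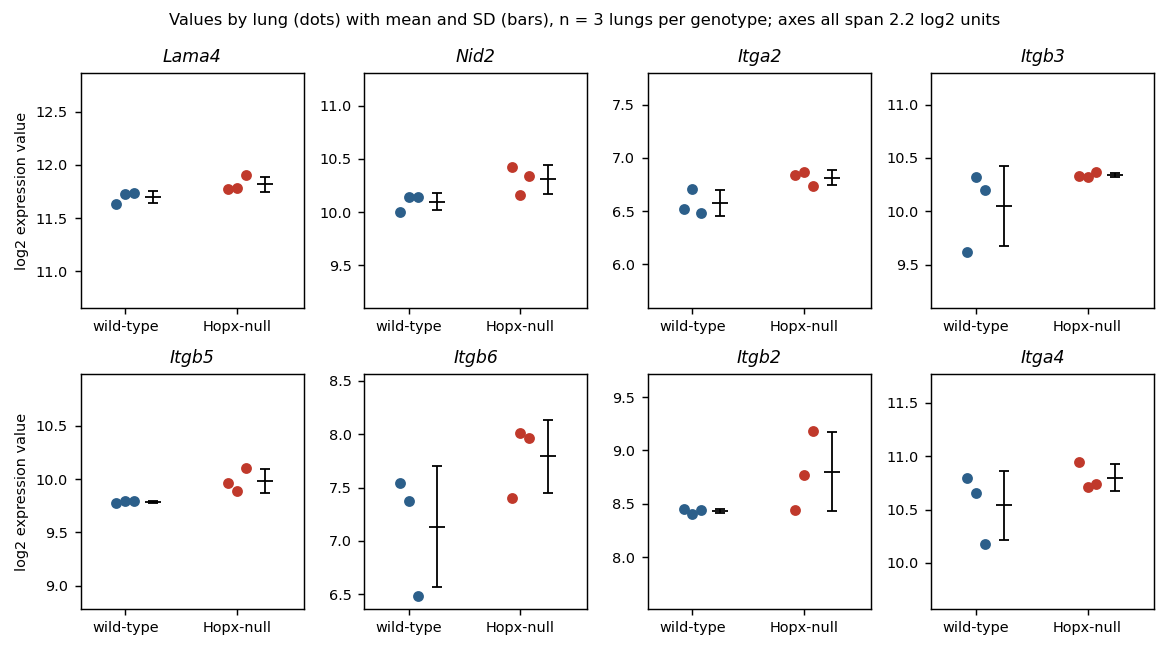
Log2 values by lung (dots) with the mean and SD (bars, n = 3) for 8 genes. Lama4, Nid2, Itga2, Itgb3 and Itgb5 do not overlap between genotypes but are close, and Itgb6, Itgb2 and Itga4 overlap.

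The upstream stretches of Itgb6 and Itgb5 are shown as those of the beta subunit with the largest difference and of the one whose probe sets all kept the genotypes apart. They are the 250 bases before the RefSeq start in GRCm38.p6, chr2:60722604-60722853 on the minus strand for Itgb6 (52.0% G or C) and chr16:33829415-33829664 on the plus strand for Itgb5 (65.2% G or C). Matches to the same 3 words on either strand are in capitals.
Itgb6: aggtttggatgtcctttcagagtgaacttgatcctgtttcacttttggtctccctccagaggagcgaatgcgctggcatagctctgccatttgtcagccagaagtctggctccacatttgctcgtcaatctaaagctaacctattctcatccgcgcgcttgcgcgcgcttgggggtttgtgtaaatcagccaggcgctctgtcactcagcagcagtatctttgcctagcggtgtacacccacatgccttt
Itgb5: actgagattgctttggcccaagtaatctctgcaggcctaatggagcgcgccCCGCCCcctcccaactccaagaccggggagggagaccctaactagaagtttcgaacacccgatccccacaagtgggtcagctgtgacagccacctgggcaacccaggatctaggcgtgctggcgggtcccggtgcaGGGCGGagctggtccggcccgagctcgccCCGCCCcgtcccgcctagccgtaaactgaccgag
Itgb5 held GGGCGG at 3 places, 1 of them on the strand of the gene and 2 on the other, where it reads CCGCCC. At least 1 match was present in 32.7% of windows of this length. None of the 3 words was in the Itgb6 stretch.

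The genes that share only the start of a symbol have other roles. Itgb1bp1 encodes an adaptor that binds the tail of the beta 1 subunit and differed by -0.05. Itgb1bp2, melusin, a muscle protein encoded on the X chromosome, read 6.96, 6.93 and 7.22 in Hopx-null and 6.26, 6.64 and 6.93 in wild-type lungs. Hopx-null replicate 2 and wild-type replicate 3 met at 6.93, and the difference was 0.43 (SE 0.18, limma, Benjamini-Hochberg adjusted p = 0.878), 0.25 without wild-type replicate 1 and 0.79 with Eif2s3y as a covariate. Cardiac muscle markers averaged 9.97, 9.98 and 10.39 against 9.55, 9.99 and 10.30. This mean was lowest in wild-type replicate 1 and highest in Hopx-null replicate 3, as was Itgb1bp2, but not every marker was. Myh6 and Tnnt2 had these lowest and highest lungs. Myh7 and Myl2 were lowest in wild-type replicate 3, and Nppa, at 9.47, and Actc1 were highest there. The part of these markers was not tested. Itgb2l, a leukocyte gene related to Itgb2, read 6.17, 7.58 and 7.70 against 6.58, 6.51 and 6.98, with Hopx-null replicate 1 the lowest of all lungs. Its difference of 0.46 (SE 0.40, limma, Benjamini-Hochberg adjusted p = 0.888) was 0.18 without Hopx-null replicate 3, 0.25 without Hopx-null replicate 2, 0.95 without Hopx-null replicate 1 and 0.13 for the mean of its 3 probe sets. Itgb3bp, a centromere protein that can bind the beta 3 tail, differed by 0.16.

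**Figure D5:**
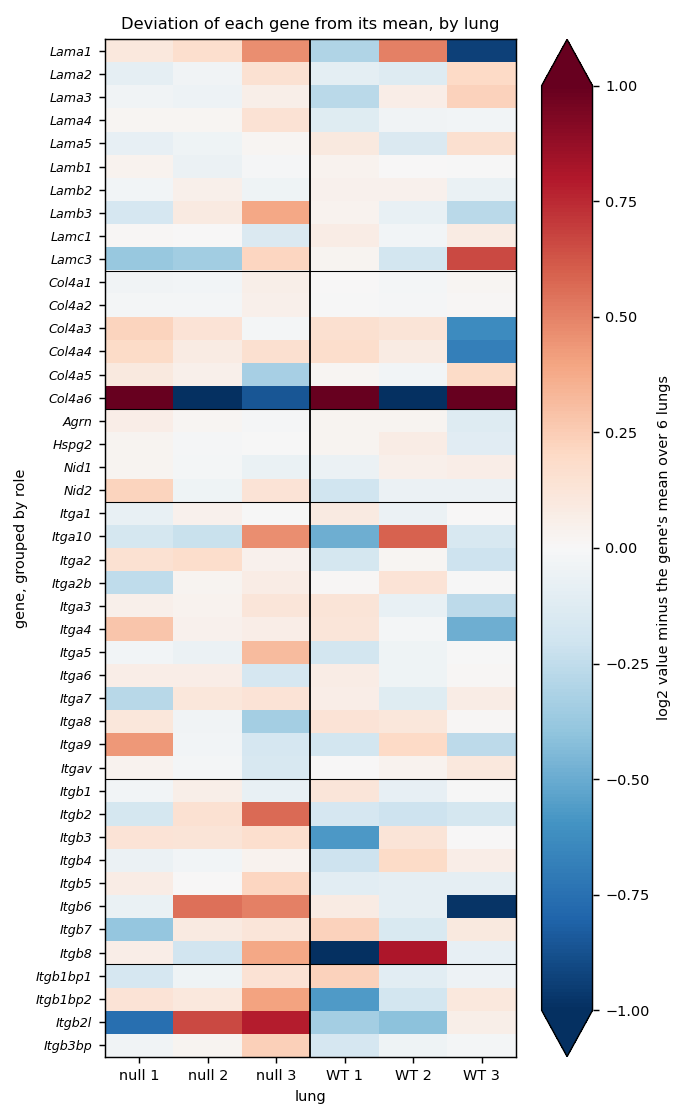
Deviation of each of the 44 genes from its mean over the 6 lungs (colour, log2 units, cut at -1 and 1), with genes in rows by role and lungs in columns, Hopx-null on the left. Most genes stay near 0, Col4a6 splits the lungs of both genotypes, and wild-type replicate 3 is low for Col4a3, Col4a4, Itga4 and Itgb6.

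Lungs of 1 genotype also differed from each other. The median within-genotype SD of the 44 genes was 0.16, against 0.15 over all genes. Their median absolute difference between genotypes was 0.12, against 0.10 over all genes. The SD is of single lungs and the difference is between means of 3 lungs, so they are not like measures. Among the 38 brighter genes, wild-type replicate 3 was the lowest lung in 11, 28.9% against 28.1% of all genes above that level. Hopx-null replicate 3 was the highest lung in 12, 31.6% against 25.7%. The first of these shares was near that of the array as a whole. Some others lay further from it. Wild-type replicate 1 was the lowest lung in 9, 23.7% against 15.4%, and Hopx-null replicate 2 in 2, 5.26% against 15.8%. These counts are small and were not tested.

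The partners of these proteins were taken as lists, and no gene in them passed the threshold. Over all genes, 52.2% were higher in Hopx-null lungs and 4.54% had an unadjusted p under 0.05 (limma). Of 24 genes for other basement membrane components and for enzymes that modify collagen, 15 were higher and 9 lower in Hopx-null lungs, 0 passed limma's threshold (Benjamini-Hochberg), and 1 of them had an unadjusted p under 0.05. Their median was 0.05. The groups did not overlap in 4, 16.7% against 10.5% of all genes, and the largest differences among these were 0.48 for Plod1, a lysyl hydroxylase of collagen, and 0.28 for Frem1, a component of fetal epithelial basement membranes. Of 14 ligands outside the basement membrane, 8 were higher and 6 lower with a median of 0.05, 0 passed and 1 had an unadjusted p under 0.05. The groups did not overlap in 2, 14.3% against 10.5% of all genes, which were Vtn, vitronectin, with 0.52 and Tgfb1 with 0.13. Of 28 genes for linking integrins to the cytoskeleton and for their signalling, 14 were higher and 14 lower with a median of -0.0037, 0 passed and 0 had an unadjusted p under 0.05 (limma). The groups did not overlap in 6 of them, 21.4% against 10.5% of all genes, 4 higher and 2 lower, among them Bcar1, an adaptor phosphorylated at adhesions, with 0.22, and Ptk2b, an adhesion kinase, with 0.19. Of 5 integrin-related genes outside the naming rule, 4 were higher and 1 lower, and 0 passed. The groups did not overlap in 2 of them, 40% against 10.5% of all genes. An unadjusted p under 0.05 (limma) was found for 1 gene. This was Itgax, a subunit of macrophages and dendritic cells, which read 7.25, 7.66 and 7.50 in Hopx-null and 7.04, 6.87 and 6.29 in wild-type lungs. Its groups did not overlap, and its difference of 0.73 (SE 0.21, limma, Benjamini-Hochberg adjusted p = 0.878) was larger than that of any of the 44 genes in that direction. Itgam, another myeloid subunit, read only 3.82 to 4.26 and differed by 0.21. Itgax was highest in Hopx-null replicate 2 and lowest in wild-type replicate 3. The mean of the leukocyte markers given beside Itgb2 was highest in Hopx-null replicate 3 and lowest in wild-type replicate 2. The part of these markers in the Itgax and Itgam values was not tested.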

How the data were processed

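Total RNA of 6 mouse lungs at E16.5 was measured, 3 Hopx-null and 3 wild-type. The values deposited by the authors were read as log2 expression values, inferred from their range and from RMA, which is listed beside Partek 6.6, per the submitters' processing notes, without saying which did what. RMA makes the arrays' distributions alike, so a shift of most genes in 1 direction would not be visible. Of 45101 probe sets, 64 array controls were left out and 45037 tested, unfiltered, by lmFit and eBayes of limma 3.58.1 (R 4.3.3), with Benjamini-Hochberg adjustment over all and a threshold of 0.05. By the array's annotation 34945 probe sets have 1 gene and 932 have several. The other 9160 are unnamed here. All 44 members matched the RefSeq table of GRCm38.p6 by gene identifier, and 0 symbols differed. RefSeq windows were given for 31 of them. The members carry 97 probe sets.

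The members and lists were chosen with earlier results of these data known. Differences with an SE are given for members without overlap between groups, for the 2 largest per role (both with a mean above 6.69), and for Col4a6, chosen after its values were seen. The type I marker list was added late. With 3 lungs per genotype the smallest p of a two-sided exact permutation test is 0.1, and the number of arrays limits the precision. Procedures were tested on simulated data. Alternatives were repeated quantile normalization, centring on medians, a filter on dim probe sets, trend and robust options, weighting of arrays, a block for the replicate number, other probe sets per gene, Eif2s3y as a covariate and each lung left out.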

Additional observations from a re-analysis of the deposited data

How the results depend on the processing

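The count of 0 members passing limma's threshold (Benjamini-Hochberg) was the same under every alternative run, and the smallest adjusted p for a member given with an SE was 0.389, for Itgb2l without Hopx-null replicate 1. Members without overlap numbered 5 with all lungs, 5 or 6 under the other alternatives and 6 to 14 with a lung left out (14 without Hopx-null replicate 1 or wild-type replicate 1), where fewer values are left to overlap. The median difference of the members ranged from 0.011 to 0.050 with a lung left out and from -0.0042 to 0.037 under the other alternatives. Among the members given with an SE, the differences that turned sign were Agrn (-0.0019 at the probe set with the highest variance, -0.0056 with Eif2s3y as a covariate, and -0.0027 to 0.076 with a lung left out), Col4a3 (-0.049 with the covariate, -0.032 to 0.36 with a lung left out), Col4a4 (-0.037 with the covariate) and Itga4 (-0.00057 with the covariate). Since Eif2s3y signal is in wild-type replicates 2 and 3, the covariate leaves mainly wild-type replicate 1 to compare with. With the replicate number as a block, 0 members passed, and over all probe sets 1 passed in place of 2. Same-numbered samples' deviations correlated at -0.096, -0.12 and 0.18, and not every sample correlated best with its own number. With 3 lungs per genotype this cannot decide whether the numbers pair the lungs. Lower signal limits Col4a6, Lama1, Lamc3, Itga10, Itgb7 and Itgb8, whose means lie below the median of all probe sets. That median is not a background level, and Col4a6 read 7.76, 7.54 and 7.98 in Hopx-null replicate 1 and wild-type replicates 1 and 3.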

Other observations

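Over the 45037 probe sets, 6 read more than 1 log2 unit higher in each of Hopx-null replicate 1 and wild-type replicates 1 and 3 than in any of the other 3 lungs. They are both probe sets of Col4a6, the Lamb1 probe set with the lowest mean, 1 of Lsm12, an RNA-binding protein gene, and 2 unnamed here. Lsm12 read 8.67, 6.65 and 6.61 in Hopx-null and 8.52, 6.45 and 8.43 in wild-type lungs. These lungs were picked from the Col4a6 values, so the list is a description, and no cause was tested.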
